A study of Rattus norvegicus with 60 samples.

Results

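The early phase of reperfusion after retinal ischemia was described by comparing the microRNA (miR) profile of rat retinas taken 2 h after the end of a pressure-induced ischemia with that of sham control retinas taken at the same time. The comparison rested on 12 of the 60 arrays of a time series, 6 of the IR 2 h group and 6 of the Sham control 2 h group, and took in all 350 rat miRs of the array. Male Long Evans hooded rats of 250 to 300 g had the front chamber of the eye cannulated, and in the IR group the intraocular pressure was held at 110 mmHg for 60 min and then released. Sham eyes went through the same procedure with no rise in pressure, so both groups share the anesthesia and the cannulation. Each array held labelled total RNA (100 ng, RNA integrity number above 8) from the whole retina of 1 rat, so a change can be a change in the number of cells of a type or in the RNA per cell, and these cannot be told apart.

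miRs are short RNAs that are cut from the arms of hairpin transcripts and guide a silencing complex to messenger RNAs. Pairing rests mainly on the seed, bases 2 to 8 of the mature miR, so miRs with 1 seed are read as a family. The retina is known for a small set of very abundant miRs, among them the neuronal miR-124 and the photoreceptor cluster of miR-183, miR-96 and miR-182. In ischemia of nervous tissue, miR-210 is known as a miR induced by hypoxia and miR-21 as a miR of injured and glial tissue.

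Of the 159 miRs that could be tested, 8 (5.03%) were higher in IR at 2 h by the thresholds of at least a 2-fold change and an adjusted p of at most 0.05. They were miR-539, miR-206, miR-672, miR-333, miR-20b-5p, miR-466b, miR-99b* and miR-93, and none was called lower. Mature sequences of 7 of the 8 were read from RefSeq (build GRCr8). The first set is shown because the mature forms of miR-539, miR-206, miR-672 and miR-466b all hold the 6 letters GUGUGU, given in capitals:
miR-539-5p: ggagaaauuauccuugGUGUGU
miR-206-3p: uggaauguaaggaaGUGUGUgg
miR-672-5p: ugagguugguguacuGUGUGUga
miR-466b-5p: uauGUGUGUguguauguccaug

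The letters were searched as written along the mature RNA, with overlapping matches in 1 miR counted once. They were chosen with the called miRs known, so the counts are a description and not a test. On the array, miR-1, miR-32 and miR-466c also hold them in an arm but were not among the miRs tested. The letters occur in 9 of the 693 mature rat miR names of the table (1.30%), in 4 of the 7 called miRs with a sequence, and in neither arm of the 129 other tested miRs that have an entry. The 4 miRs lie apart in the genome, at chr6:134563606-134563627 (plus strand, within the large miR cluster of the imprinted Dlk1-Dio3 region), chr9:30590747-30590768 (plus), chrX:73192351-73192373 (minus) and chr17:72942513-72942534 (minus), and no pair of them shares a seed. The second set is shown for its shared seed, AAAGUGC, in capitals, which defines the miR-17 seed family:
miR-93-5p: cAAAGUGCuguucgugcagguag
miR-20b-5p: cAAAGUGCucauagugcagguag
miR-20a-5p: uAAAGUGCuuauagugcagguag

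These members come from the 3 related clusters of the family, miR-93 at chr12:22156894-22156916 (minus), miR-20b at chrX:137343239-137343261 (minus) and miR-20a at chr15:98588318-98588340 (plus). Of the called miRs, miR-99b-3p, the array's miR-99b*, belongs to neither set and has the seed AAGCUCG (chr1:67350108-67350129, plus).

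General measures of the arrays overlapped between the groups, and the retina markers were present throughout. Between 105 and 180 miRs were detected on an IR array and between 113 and 207 on a sham array, and no difference was found in 4 array measures (detected miRs, 2 brightness percentiles, share of signal in the 10 brightest miRs; exact two-sided permutation test, lowest p = 0.749, adjusted p = 0.913 over the 4). IR replicate 2 was the dimmest of the 12 arrays and had the fewest detected miRs (105). All 8 retina-defining markers were detected on all 12 arrays, with miR-124, miR-183 and miR-96 the brightest miRs. The IR arrays of 2 h lay on 3 slides and the sham arrays on 3 other slides, so slide and treatment cannot be told apart within this time, whereas each of the 3 scans held 2 IR and 2 sham arrays.

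The retinal miR profile at 2 h was otherwise close to that of the sham control. The median log2 fold change over the 159 miRs was -0.01, and 141 of them (88.7%) had an estimate of less than 0.5 in size. Without a fold change threshold, 12 miRs (7.55%) were higher at an adjusted p of at most 0.05 and 0 were lower (limma), and 4 of the 19 miRs with an unadjusted p under 0.05 were lower. Among the tested miRs, all 6 IR arrays lay above all 6 sham arrays for 4 (2.52%), miR-539, miR-206, miR-672 and miR-497, and below them for 1 (0.629%), miR-140*. The miRs not tested include miR-196b (3.39 to 4.43 in IR, 2.63 to 3.31 in sham, log2 level) and miR-196c (4.12 to 5.78 and 2.93 to 3.74), whose IR arrays also lay above all sham arrays. The called miRs carried a mean of 2.59% of the scaled signal of an IR array and 0.772% of that of a sham array. An exact permutation test per miR, which cannot give a p below 0.00216 with 6 against 6 arrays, called 0 miRs after adjustment (lowest adjusted p = 0.0688) and gave an unadjusted p under 0.05 for 22.

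**Figure D1:**
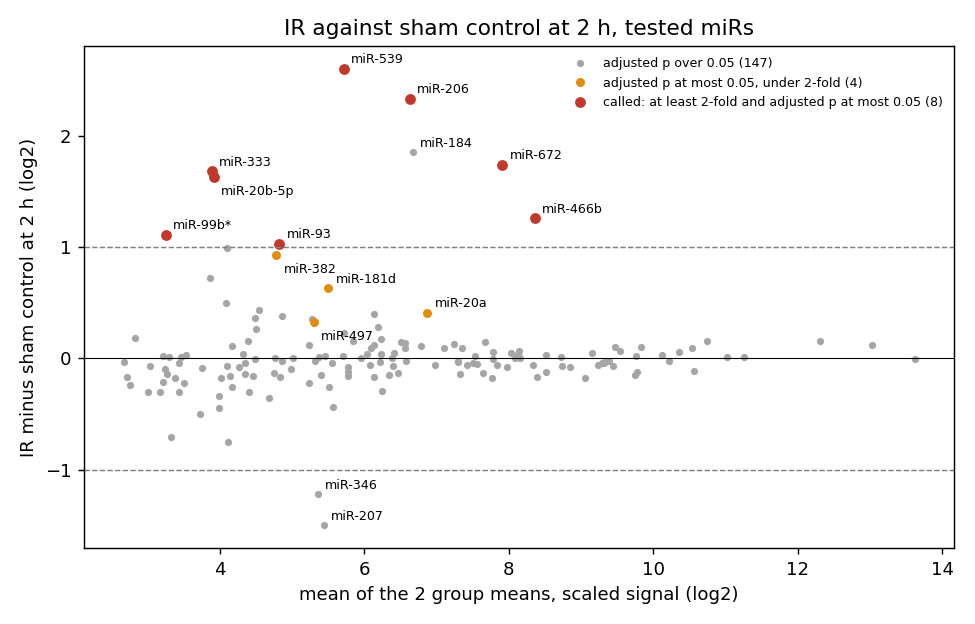
Log2 difference IR minus sham control at 2 h (y axis) against the mean log2 level of the 2 groups (x axis), 1 dot per tested miR, with dashed lines at a 2-fold change. The 8 called miRs (red) are all above the upper line, while miR-184, miR-207 and miR-346 passed 2-fold without passing the adjusted p.

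The 4 miRs with the GUGUGU letters included the 3 called miRs whose groups did not overlap, miR-539, miR-206 and miR-672. All levels are scaled total gene signals on the log2 scale, with a floor of 2.63, the median over arrays of the lowest detected signal. Detection is a flag of each array and does not follow this floor, so an undetected miR can have a level above it. For miR-539, the IR arrays had a lowest level of 5.75, a median of 7.30 and a highest of 8.16, and the sham arrays 3.49, 4.45 and 5.11. The lowest IR retina thus lay above the highest sham retina, and miR-539 was detected on 6 of 6 IR and 3 of 6 sham arrays. Its log2 fold change was 2.60 ± 0.37 (SE), which is 6.05-fold (limma, adjusted p = 5.62e-07). The spread behind this and the other limma p-values was estimated over all 60 arrays. A fit of the 12 arrays of 2 h alone called 7 miRs, without miR-333, and its lowest adjusted p for any miR was 0.0147 (limma). Of the 2 h groups, miR-539 and miR-206 (detected on 6 IR and 5 sham arrays) met the detection filter only through IR, where they were high. With the filter set on all 12 arrays of 2 h neither was tested, and miR-466b and miR-672 were called.

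miR-206, one of the muscle-enriched miRs, ranged over 6.17, 8.22 and 8.97 (lowest, median and highest) in IR and 4.71, 5.57 and 5.98 in sham. Again no IR array overlapped a sham array, although the lowest IR array, replicate 2, came close to the highest sham array. The log2 fold change was 2.33 ± 0.42 (5.03-fold, limma adjusted p = 8e-05). miR-672, encoded on the X chromosome, had levels of 7.54, 9.06 and 9.67 in IR and 6.46, 7.17 and 7.52 in sham and was detected on all 12 arrays. The groups touched without overlapping, and the log2 fold change was 1.74 ± 0.34 (3.34-fold, limma adjusted p = 0.000231). miR-466b was the brightest of the called miRs, with 8.07, 9.14 and 9.76 in IR and 7.21, 7.77 and 8.34 in sham. Here 4 of the 6 IR arrays lay above all sham arrays and the other two lay within the sham range, with a log2 fold change of 1.26 ± 0.32 (2.39-fold, limma adjusted p = 0.00475).

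**Figure D2:**
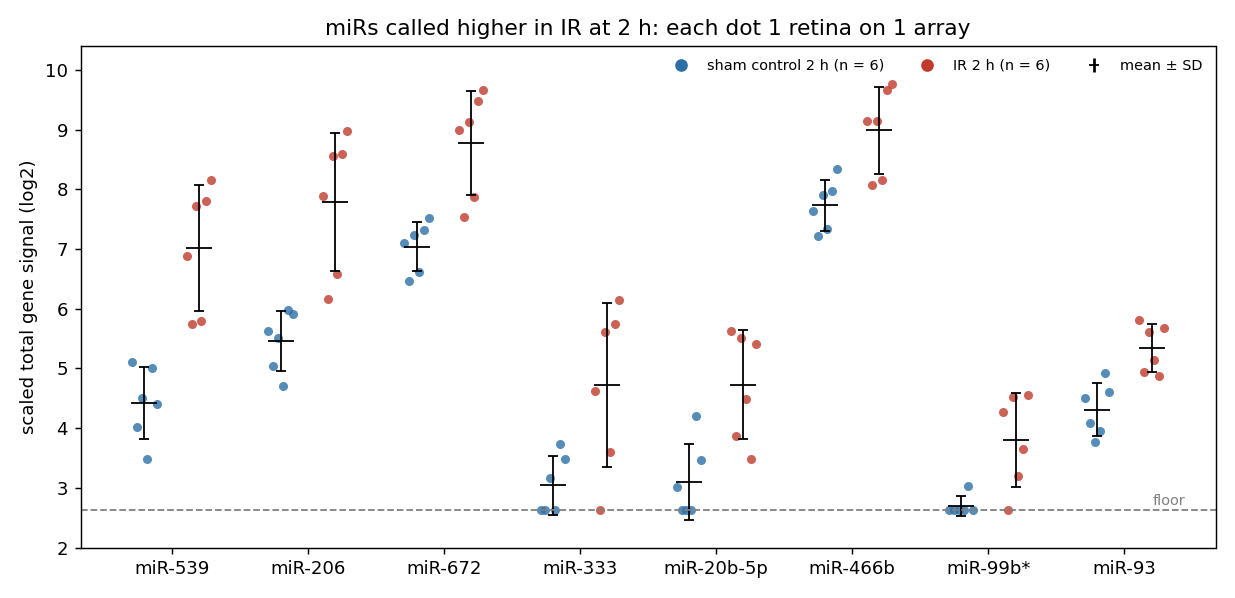
Scaled total gene signal (log2) of the 8 called miRs, 1 dot per array, sham control in blue and IR in red, with the mean and SD of each group and the floor as a dashed line. miR-539, miR-206 and miR-672 separate the groups fully, and sham arrays of miR-333, miR-20b-5p and miR-99b* lie on the floor.

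Within each scan, where 2 IR arrays faced 2 sham arrays, the difference was above 0 for all 8 called miRs. These miRs were called for a higher mean over the same arrays, so this count is a description and not a test. The share over all tested miRs was not counted. The difference was 1.75, 2.76 and 3.28 for miR-539, 1.70, 2.46 and 2.83 for miR-206, and 1.49, 1.57 and 2.16 for miR-672 (log2 differences in scans 1, 2 and 3). With slide as a block over all 60 arrays, miR-539, miR-206, miR-672 and miR-93 stayed called and the rest did not. Over all times only 2 of the 9 slides held both treatments. This fit therefore leans on arrays of other times and does not separate slide from treatment within 2 h.

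Members of the miR-17 seed family, known as promoters of cell cycle entry, formed the second group. miR-93, from the miR-106b/93/25 cluster, had levels of 4.87, 5.38 and 5.81 in IR and 3.77, 4.30 and 4.93 in sham, so that 5 of 6 IR arrays lay above all sham arrays. Its log2 fold change of 1.03 ± 0.24 (2.05-fold, limma adjusted p = 0.00259) lay at the fold threshold, and it fell under it when any of IR replicate 1, 3 or 6 or sham replicate 2, 3 or 4 was left out (log2 0.94, 0.98, 0.97, 0.99, 0.93 and 0.96). miR-20b-5p was detected on 5 IR and 3 sham arrays, with 3.49, 4.95 and 5.62 in IR and 2.63, 2.83 and 4.20 in sham. The groups overlapped, with 4 IR arrays above all sham arrays, and the log2 fold change was 1.63 ± 0.43 (limma adjusted p = 0.00603).

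miR-20a, from the miR-17/92 cluster, was detected on all 12 arrays, with 6.80, 7.12 and 7.22 in IR and 6.55, 6.64 and 6.80 in sham. The shift was small and even, at a log2 fold change of 0.41 ± 0.11 (1.33-fold, limma adjusted p = 0.0077), under the fold threshold. miR-106b, with the same seed, had a log2 fold change of 0.15 ± 0.08 (limma adjusted p = 0.399) and was not called. miR-17-5p was detected on 5 IR and 2 sham arrays and was not tested, and its levels were 2.95, 4.41 and 5.08 in IR and 2.63, 3.08 and 4.15 in sham. Over the family and its cluster partners, 2 of 7 tested members were called, against 5.03% of all tested miRs, and 6 of the 7 estimates were above 0 (median log2 fold change 0.15, range -0.00 to 1.63). Both called members, miR-93 and miR-20b-5p, entered the test through a group of another time. With the filter set on the 2 h groups neither was tested. The list was chosen with earlier results known, so this share is a description and not a test of the family.

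The 2 remaining called miRs were dim. miR-333 was detected on 5 IR and 2 sham arrays, at 2.63, 5.12 and 6.14 in IR and 2.63, 2.90 and 3.74 in sham, with 1 IR array (replicate 2) at the floor (log2 fold change 1.68 ± 0.39, limma adjusted p = 0.00263). miR-99b*, the 3′ arm of the miR-99b hairpin, was detected on 5 IR and 2 sham arrays, at 2.63, 3.97 and 4.55 in IR against a highest sham level of 3.04 (log2 fold change 1.11 ± 0.30, limma adjusted p = 0.00831). Its call was lost when IR replicate 3 or 6 was left out, at a log2 fold change of 0.96 each time. The 5′ arm, miR-99b, which is the form usually counted, was at -0.22 ± 0.28 (limma adjusted p = 0.858). The dim members miR-333, miR-20b-5p, miR-99b* and miR-93 were not detected on all 6 arrays of either 2 h group and entered the test through a group of another time.

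Below the fold threshold, miR-181d, miR-497 and miR-382 were higher along with miR-20a. miR-181d, of a family abundant in inner retina, had 5.35, 5.76 and 6.37 in IR and 4.98, 5.21 and 5.35 in sham, and 5 of 6 IR arrays lay above all sham arrays (log2 fold change 0.63 ± 0.16, limma adjusted p = 0.00475). The other tested members of its family were at 0.28 ± 0.11 for miR-181c, -0.11 ± 0.12 for miR-181a and -0.08 ± 0.11 for miR-181b, with limma adjusted p from 0.2 to 0.858. miR-497, of the miR-15 family, had 5.30, 5.47 and 5.67 in IR and 5.01, 5.15 and 5.30 in sham, a small shift in which the groups met at 5.30 without overlapping (log2 fold change 0.33 ± 0.08, limma adjusted p = 0.00475). miR-382, singled out after its values were seen, was at 0.93 ± 0.31 (limma adjusted p = 0.049).

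No miR was called lower, and the lowest adjusted p among the 85 negative estimates was 0.31 (limma), for miR-26a at -0.15 ± 0.07. miR-146b, a miR that responds to inflammatory signalling, had 5.14, 5.40 and 5.58 in IR and 5.47, 5.62 and 5.89 in sham. Its 6 IR levels all lay under the sham median, with 4 of them under all sham arrays, but the log2 fold change was -0.26 ± 0.12 (limma adjusted p = 0.329). miR-192 was at -0.44 ± 0.21, miR-125b-5p at -0.18 ± 0.10, miR-132 at -0.17 ± 0.11, miR-361 at -0.14 ± 0.10, miR-487b at -0.29 ± 0.21 and miR-342-3p at -0.08 ± 0.06, with limma adjusted p from 0.359 to 0.648. miR-140*, singled out because its groups did not overlap, had 5.64 to 5.75 in IR and 5.77 to 6.02 in sham (log2 fold change -0.16 ± 0.16, limma adjusted p = 0.783).

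The 2 negative estimates beyond 2-fold came from miRs that split the IR group. miR-207 had levels of 2.63, 4.66 and 7.41 in IR and 5.17, 6.35 and 6.89 in sham, and the log2 fold change of -1.50 ± 0.72 did not pass (limma adjusted p = 0.359). IR replicates 5 and 6 were at the floor while IR replicate 2 lay above every sham array. miR-346 repeated this pattern, with 3.02, 4.87 and 6.77 in IR and 5.25, 6.10 and 6.64 in sham (-1.22 ± 0.63, limma adjusted p = 0.399), and again IR replicate 6 was lowest and IR replicate 2 highest. Within scans 1, 2 and 3 the difference was 0.58, -1.13 and -3.95 for miR-207 and 0.41, -0.89 and -3.17 for miR-346, so its direction was not the same in all scans.

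Among the called miRs, spread within the IR group mostly followed a shared order. IR replicates 2 and 4 were the 2 lowest IR arrays for 6 of the 8 called miRs, with replicate 2 the lowest and replicate 6 the highest for each of these 6 (miR-539, miR-206, miR-672, miR-466b, miR-333 and miR-99b*). For the seed partners miR-93 and miR-20b-5p the lowest IR array was replicate 5, followed by replicate 2, and the highest was replicate 1. The order was counted for the called miRs alone, with no share over all tested miRs. It is not particular to them, since miR-1 and miR-122, which were not tested, also had replicates 2 and 4 lowest and replicate 6 highest. SDs of log2 levels in IR and sham were 1.05 and 0.61 for miR-539, 1.16 and 0.50 for miR-206, and 0.87 and 0.42 for miR-672. IR replicate 4 was not dim, with 150 detected miRs, whereas IR replicate 2 was the dimmest array, and the part of array brightness in this order was not tested. With array brightness as a covariate the same 8 miRs were called.

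**Figure D3:**
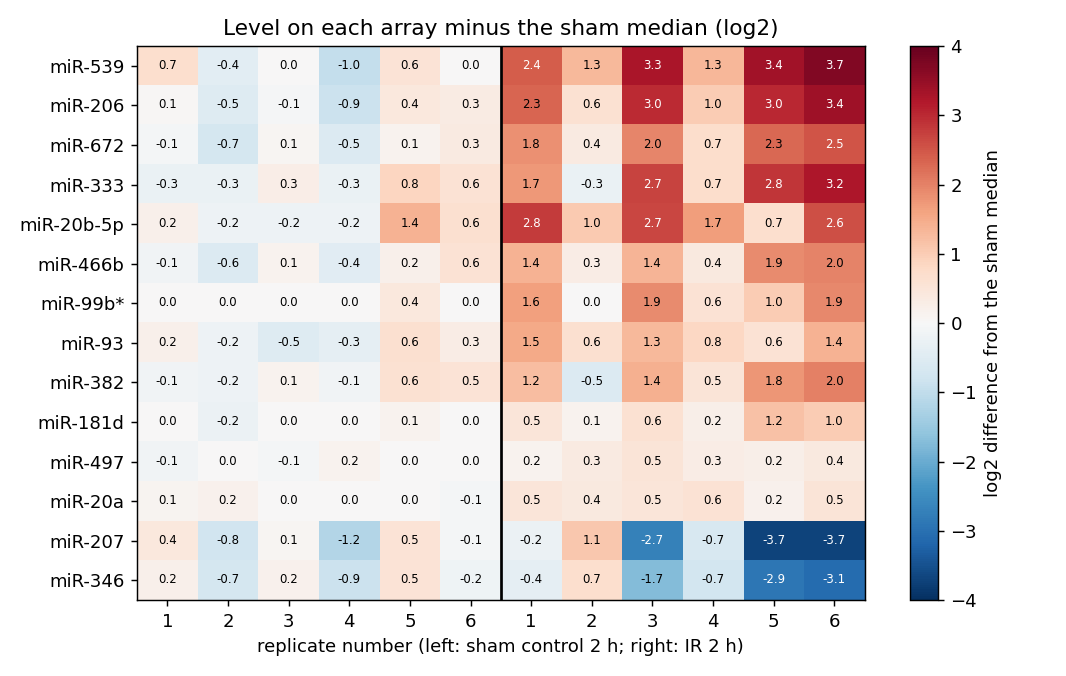
Log2 level of 14 miRs (rows) on each of the 12 arrays (columns, by replicate number, sham control left and IR right) minus the median of the 6 sham arrays, red for higher and blue for lower. IR replicates 2 and 4 are pale in the upper rows, and IR replicates 3, 5 and 6 are the lowest for miR-207 and miR-346.

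miRs known from tissues outside the retina were examined beside miR-206. Of the 4 skeletal muscle markers, miR-206 was called. miR-1, which shares the seed GGAAUGU with miR-206 and also holds GUGUGU, was detected on 4 of 6 IR and 0 of 6 sham arrays, at 2.63, 4.67 and 5.40 in IR and at the floor on all sham arrays. miR-1 was not among the miRs tested, and no fold is given for it. miR-133a, the usual partner of miR-1 in muscle, was detected on none of the 12 arrays, and miR-133b on 0 IR and 2 sham arrays at the floor. The summed scaled signal of these 4 markers ranged from 75 to 547 units in IR and from 26.8 to 74.5 in sham. Most of it was miR-206, with a mean of 278 units in IR and 46.3 in sham, against 22.8 and 0.978 for miR-1. The sum thus largely repeats the miR-206 call, and the part of muscle in this difference was not tested.

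miR-122, a miR of liver, was detected on 4 IR arrays and 1 sham array, at 2.63, 4.53 and 5.42 in IR and at the floor on all sham arrays. miR-184, of lens and cornea, was uneven in IR, at 4.36, 8.02 and 10.87 against 5.05, 5.60 and 7.01 in sham, and its log2 fold change of 1.85 ± 1.08 did not pass (limma adjusted p = 0.488). The pigment epithelium miRs miR-204 and miR-211 were at 0.06 ± 0.10 and -0.07 ± 0.12, and miR-205, of surface epithelia, was detected on no array. Of 7 blood cell markers, 4 (including the red cell miR-451) were detected on none of the 12 arrays, and the summed signal ranged from 19.4 to 39.6 units in IR and from 19.5 to 51.3 in sham. The endothelial miR-126 and the vessel wall miR-143 were at -0.17 ± 0.16 and -0.08 ± 0.10, while 7 of the 11 vessel markers were detected on no array of 2 h.

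Large retinal and neuronal miR families lay close to the sham control at 2 h. Among the 10 brightest miRs, the log2 fold changes of miR-124 (-0.01 ± 0.11), miR-183 (0.12 ± 0.09), miR-96 (0.16 ± 0.11), miR-29a (0.01 ± 0.08), miR-29c (0.01 ± 0.10) and miR-204 were all under 0.2 in size. let-7a, let-7b, let-7c and miR-181a, the remaining bright miRs, were between -0.11 and 0.16. None of the 14 tested neuronal miRs was called (median -0.04, range -0.30 to 0.12), with miR-124*, the passenger arm of miR-124, at the low end. The same held for the 3 members of the photoreceptor cluster (median 0.12) and for the 8 let-7 miRs (median 0.05, range -0.07 to 0.16). The 3 miR-29, 5 miR-30, 5 miR-125/99/100 and 5 miR-23/27/24 miRs tested also had no call, with list medians of 0.01, -0.04, -0.13 and -0.02. Over all tested miRs 8 of 159 (5.03%) were called, so lists of this size can hold no call without differing from the rest.

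miRs known for hypoxia, injury and neuronal activity were not called either. Beside the 5.03% called of all tested miRs, no call in such short lists does not set them apart. miR-210 was bright in both groups, at 9.02, 9.30 and 9.44 in IR and 9.10, 9.38 and 9.54 in sham (log2 fold change -0.04 ± 0.13, limma adjusted p = 0.982). miR-34a, a target of p53, was at 0.13 ± 0.08. miR-21 had the same range, 7.96 to 8.19, in both groups (-0.00 ± 0.16). All 5 tested members of the injury and inflammation list were at or under 0 (median -0.18), and miR-146a was detected on no array. Of the activity-regulated miRs, miR-212 was at 0.02 ± 0.18.

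**Figure D4:**
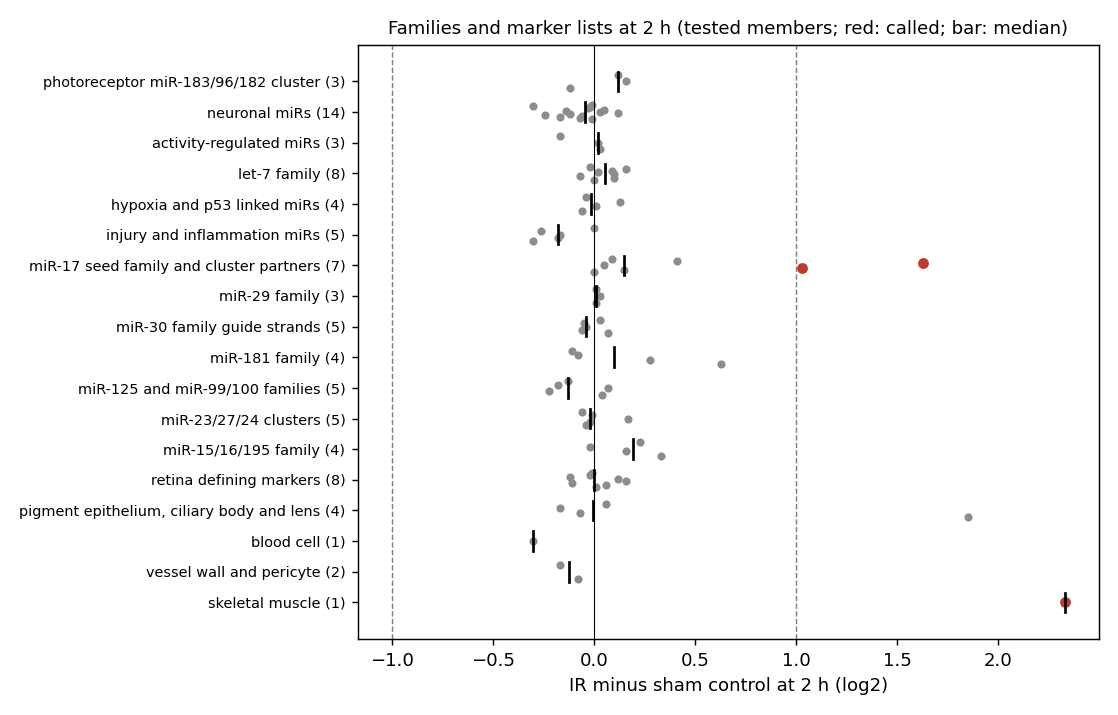
Log2 difference IR minus sham control at 2 h (x axis) for the tested members of each family or marker list (y axis, number tested in brackets), 1 dot per miR, the called ones in red and the list median as a bar. Outside miR-206, miR-20b-5p and miR-93, list members lie within the dashed 2-fold lines, except miR-184.

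Set beside the other reperfusion times, which were sampled from other rats, the called miRs of 2 h were not particular to 2 h. By the same thresholds 11 miRs (6.92%) were called at 0 h, 29 (18.2%) at 24 h, 22 (13.8%) at 48 h and 29 (18.2%) at 7d. Of the 8 miRs called at 2 h, 4 were also called at 0 h, 6 at 24 h, 7 at 48 h and 4 at 7d. The miR-539 effect was 2.23, 2.60, 2.28, 2.19 and 1.72 (log2, from 0 h to 7d), and that of miR-206 was 2.04, 2.33, 1.91, 1.96 and 1.34. miR-672 and miR-466b also stayed above 1 on the log2 scale at all 5 times. miR-333, miR-93, miR-20b-5p and miR-99b* had 7d effects of 0.07, 0.11, -0.23 and 0.06. None of the 8 had a 2 h effect that differed from its 0 h effect (limma interaction, lowest adjusted p = 0.988) or from its 24 h effect (lowest adjusted p = 0.263).

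What set 2 h apart from 24 h lay in other miRs. The IR arrays of 24 h were dimmer than their sham arrays, with an unscaled 75th percentile of all miRs (log2) between 3.48 and 5.13 against 5.86 to 6.81, while the groups of 2 h overlapped, and the part of array brightness in this comparison was not tested apart from the settings given here. The 2 h and 24 h effects differed for 38 of 159 miRs (23.9%, limma interaction), 20 with the 2 h effect above and 18 with it below the 24 h effect. miR-21, singled out after its values were seen, was at -0.00 at 2 h and 2.21 at 24 h, a difference between the effects of -2.21 ± 0.23 (limma adjusted p = 8.69e-11), which was -0.03 and did not pass with no scaling. For miR-207 and miR-346 the 2 h effect was the only negative one of the 5 times, and it differed from the 24 h effect by -4.14 ± 1.02 and -3.58 ± 0.89 (limma adjusted p = 0.00183 and 0.00203). With array brightness as a covariate these differences were -1.18 and -0.80 and did not pass. miR-20a had an effect of 1.21 at 24 h, and the difference of -0.80 ± 0.15 (limma adjusted p = 0.000149) turned to 1.39 with no scaling, where the median over all miRs was 2.19. The number and balance of these differences depended on the normalization: scaling to the 75th percentile over all miRs gave 70 above and 13 below, and no scaling gave 148 above and 2 below.

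Against 0 h, 1 miR differed (0.629%). miR-125a-3p, the passenger arm of miR-125a, had an effect of 2.17 at 0 h and 0.50 at 2 h, a difference of -1.68 ± 0.41 (limma interaction, adjusted p = 0.0208). At 2 h it was detected on 4 IR and 4 sham arrays, with 3.50, 4.32 and 5.09 in IR and 3.23, 3.94 and 4.23 in sham. Leaving out IR replicate 3 or 5, or sham replicate 1 or 2, ended this call (0 miRs each time), and leaving out IR replicate 2 brought the count to 5. Sham control retinas of 2 h had 0 called miRs against those of each other time. With no fold change threshold, 0 (0 h), 6 (24 h), 0 (48 h) and 22 (7d) had an adjusted p of at most 0.05, and 1, 32, 22 and 44 an unadjusted p under 0.05 (limma).

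**Figure D5:**
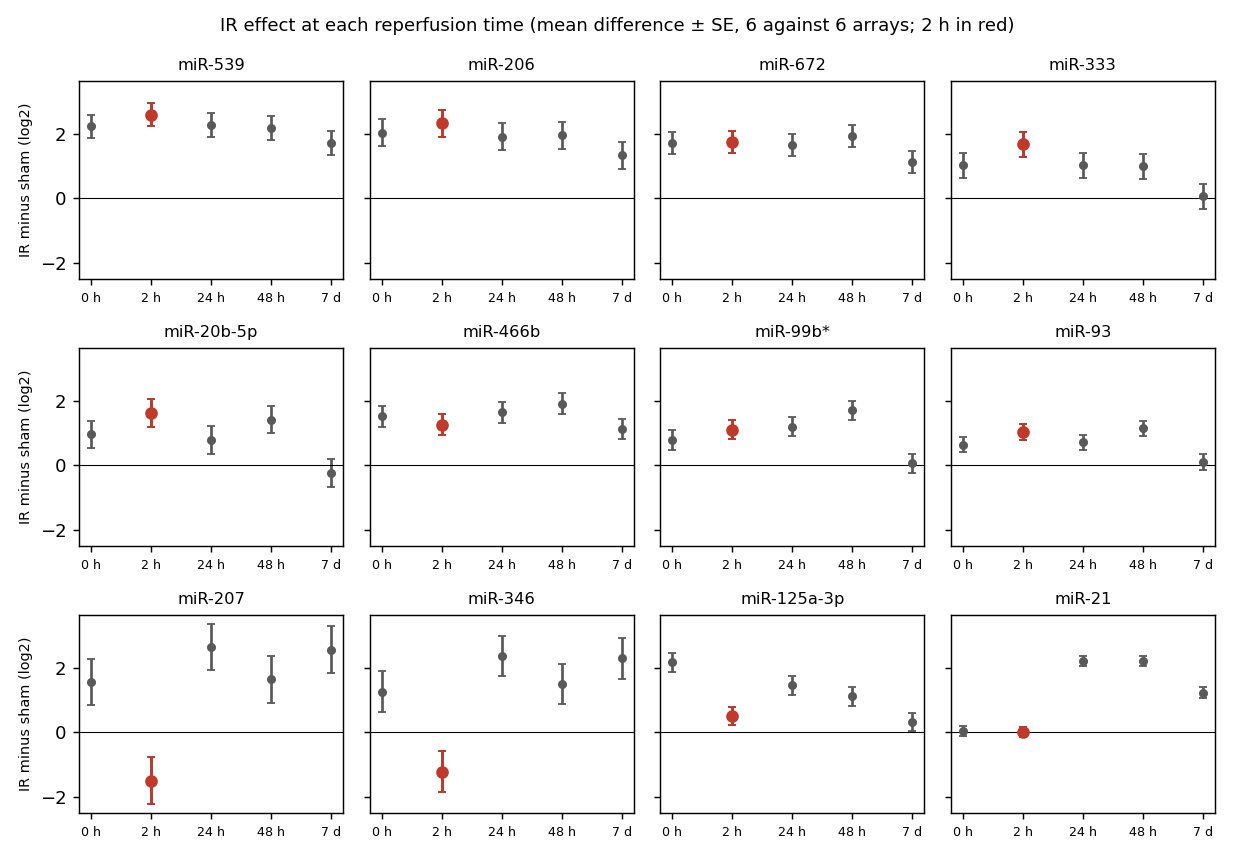
IR minus sham control (log2, mean difference ± SE, 6 against 6 arrays) at 0 h, 2 h (red), 24 h, 48 h and 7d for the 8 called miRs and for miR-207, miR-346, miR-125a-3p and miR-21. The called miRs are above 0 from 0 h to 48 h, miR-207 and miR-346 are below 0 at 2 h alone, and miR-21 is at 0 until 2 h and at 2.21 at 24 h.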

How the data were processed

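Retinal total RNA was hybridised to 1-colour Agilent rat miRNA arrays, 1 per rat. Per the file headers the authors scanned and extracted them with Feature Extraction, which subtracted background and spatial trend; the deposited intensity used here is the total gene signal per miR with its detection flag. The deposited log2 table held 210 of these miRs and differed from log2 total gene signal by 1 constant per array (3.38 to 7.12, largest deviation 1.25e-06, within 0.20 of the array's log2 75th percentile), so its scale and centring were settled; its column medians ran from -0.93 to -0.48. The 75th percentile of 57 miRs, those that no array of the 60 failed to detect, served to scale each array, and intensities were then floored at 6.2 units and put on the log2 scale. A miR entered the test if every array of 1 or more of the 10 groups detected it (159 of 350), and was tested with limma 3.58.1 (R 4.3.3), all arrays in 1 fit (50 residual degrees of freedom), and called when it changed 2-fold or more with p no higher than 0.05 after Benjamini-Hochberg adjustment. Effects at 2 h were set against those of 0 h and 24 h by interaction contrasts. Array measures used exact permutation tests (Python 3.11.15, scipy 1.17.1). Named were every called miR, the miRs of lowest p up to 10 in each direction among those detected on all 6 arrays of a 2 h group, miRs whose effect differed from 0 h, the 10 brightest, and members of families and marker lists (retina; pigment epithelium, ciliary body and lens; blood cell; vessel wall and pericyte; skeletal muscle; liver). Members and lists were chosen with earlier results of these data known. Current miRBase names gave the arm of each printed sequence. Alternatives covered the probe summary, background correction, scaling, floor, filter, fit, blocks, threshold, test, the authors' log2 table and each array left out. Tested on simulated data for this comparison (159 miRs, 20 draws), the fit recovered 95.6% of changes of 1.5 on the log2 scale and made 1 false call in 2380. The simulated arrays were independent, with the same spread in all groups, no floor and no slide effect. In the data the correlation within a slide was 0.234, so these rates do not cover slide, floor or uneven spread. The number of arrays limits the precision, and 0 rat spots were saturated at 2 h. Replicate numbers showed no pairing of single arrays: deviations of same-numbered arrays correlated at -0.24 to 0.34, above 0.1 in 2 of 6 pairs. They do mark the scan, since in both groups replicates 1 and 2, 3 and 4, and 5 and 6 belonged to scans 1, 2 and 3. With scan as a block the same 8 miRs were called at 2 h.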

Additional observations from a re-analysis of the deposited data

Results flagged for a closer look

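Single arrays stood apart in 15 of 186 checks on groups of 6 arrays (gap to the nearest array over the range of the group, past the 95% limit of Dixon), where chance gives about 1 in 20. For miR-99b*, sham replicate 5 at 3.04 was the 1 sham array off the floor. For miR-487b, IR replicate 4 was highest at 6.57 and sham replicate 4 lowest at 5.91. Among members of the families and marker lists, the highest IR array stood apart for miR-182 (9.97, replicate 2), miR-7b (2.69, replicate 4), miR-212 (8.23, replicate 4), miR-107 (8.90, replicate 1) and miR-181b (9.05, replicate 5), and the lowest for miR-9* (9.18, replicate 1). For miR-7b the other IR arrays were tied at the floor of 2.63, so the array that stood apart was barely above it. In sham, the highest array stood apart for miR-7b (3.84, replicate 3) and miR-184 (7.01, replicate 5), and the lowest for miR-182 (9.73, replicate 4), miR-128 (6.00, replicate 3), let-7e (9.18, replicate 6) and miR-27b (6.44, replicate 1).

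Of the 89 tested miRs that the text names or its lists hold, the interaction test (limma) found 1 whose 2 h effect differed from its 0 h effect and 13 whose 2 h effect differed from the 24 h effect. The 2 h effect of miR-125a-3p was below its 0 h effect by -1.68 (adjusted p = 0.0208), past the threshold under 17 of 29 alternatives. Against 24 h the difference was -4.14 for miR-207 (adjusted p = 0.00183) and -3.58 for miR-346 (adjusted p = 0.00203), each past the threshold under 29 of 30 alternatives, the exception being array brightness as a covariate. For miR-21 it was -2.21, past the threshold under 31 of 32 alternatives, and with no scaling it was -0.03 and did not pass.

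With no scaling the median difference of all miRs against 24 h was 2.19, and each negative difference other than those of miR-207, miR-346 and miR-21 turned positive there, which the counts of alternatives passed include. miR-146b was at -1.09 (28 of 31 alternatives passed, 1.10 with no scaling), miR-20a at -0.80 (31 of 32, 1.39), miR-92a at -0.55 (28 of 32, 1.63) and miR-487b at -0.99 (26 of 31, 1.20). The weakest were miR-29a at -0.32 (16 of 32, 1.87) and miR-34a at -0.30 (16 of 32, 1.89), both with adjusted p = 0.044. The miR-29a call was lost without IR replicate 4, 5 or 6 or sham replicate 1, 2, 3 or 4, and the miR-34a call without IR replicate 1, 4 or 6 or sham replicate 1, 3 or 4. Positive differences were found for miR-138 at 1.04 (23 of 29 alternatives passed), miR-181c at 0.58 (27 of 31), miR-7a at 0.47 (23 of 31) and miR-30e at 0.30 (29 of 32), with limma adjusted p from 0.00173 to 0.0289. The miR-7a call was lost without IR replicate 2 or sham replicate 1, and the miR-30e call without sham replicate 5.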

How the results depend on the processing

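At 2 h no setting among 35 called a miR lower, and miR-206 and miR-672 stayed called in each setting that tested them other than the exact permutation test per miR, which called 0. The 8 calls became 2 with normexp (miR-206 and miR-672), 5 without scaling, 3 with the highest detection limit as floor, 13 of 242 for miRs detected on at least 1 array (adding miR-1, miR-122, miR-196b, miR-196c and miR-674-5p), 2 of 57 for miRs detected on all 60 arrays, 4 of 109 and 2 of 96 for those detected on all arrays of 1 or of both 2 h groups, 4 with slide as a block, 13 of 211 in the authors' table, and 6 to 9 with 1 array left out. With the replicate block, 6 were called (miR-20b-5p and miR-99b* were lost). The numbers are shared and mark the scan but showed no pairing of single arrays, and 2 of 6 IR arrays correlated best with their own number. Against 0 h, the 1 difference became 5 with the 75th percentile over all miRs, 3 in the authors' table, 2 with the replicate, slide, scan or random slide block, and 0 with the probe mean, normexp, quantile or no scaling, each other floor, the brightness covariate, and the filters on all 60 arrays and on 1 or both of the groups of 2 h; with 1 array left out it was 0 to 5. Against 24 h, the 38 became 4 (normexp), 83 (75th percentile over all miRs), 68 (quantile), 150 (no scaling), 18 (highest floor), 8 (all 60 arrays), 21 (all 12 arrays), 64 (replicate block), 10 (brightness covariate) and 103 (authors' table), and 31 to 42 with 1 array left out. The split of 20 above and 18 below became 55 and 13 with quantile scaling, while the median difference over all miRs moved from 0.17 to 0.33, to 0.42 with the 75th percentile over all miRs and to 2.19 without scaling. At 2 h the median moved from -0.01 to -0.12 with quantile scaling and to -0.11 with the probe mean. With 1 array left out, the IR minus sham differences of the array measures ran from -10.7 to 8.07 detected miRs, from -0.0765 to 0.27 and from -0.126 to 0.234 for the log2 percentiles over all miRs and over those detected on all arrays, and from -0.898 to 0.0293 percentage points for the brightest miRs. The cause of these shifts was not tested. Of 792 values of named miRs not called, 760 moved by less than the spread between arrays. miRs near the floor have only a bounded change.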
